A study of Caenorhabditis elegans with 2 samples.

Results

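The epidermal antimicrobial nlp genes of *Caenorhabditis elegans* were examined for binding of the nuclear hormone receptor NHR-85 in first-stage (L1) larvae. They are nlp-24, nlp-25 and nlp-27 to nlp-34, 10 genes chosen by name out of 19973 nuclear protein-coding genes. For each gene, every peak was taken whose summit lay in the gene body or in the 5 kb upstream of the gene start. A peak that served several neighbouring genes was counted once. The peaks came from chromatin immunoprecipitation and sequencing (ChIP-seq) with an anti-GFP antibody on whole hermaphrodite larvae of strain OP539, genotype unc-119(tm4063) III; wgIs539. This strain stably carries NHR-85 with a C-terminal GFP-FLAG tag. The larvae had been synchronized by starvation after bleaching and were collected 6 hours later. Whether they were fed in that time is not stated in the labels. All larvae formed 1 group, sampled as 2 biological replicates. With nothing to set the group against, the values below describe the lists and carry no test between conditions. No untagged strain was analysed here, and peaks that any GFP precipitation would give cannot be told apart from those of NHR-85. The larvae were taken whole, so the tissue in which a site was bound is not known.

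The nlp genes of this group encode small secreted precursors of glycine- and tyrosine-rich peptides made mainly in the epidermis. Several of them, nlp-29 above all, are switched on when the fungus Drechmeria coniospora pierces the cuticle or when the skin is wounded, through a p38 MAP kinase cascade that ends at the STAT-like factor STA-2. The peptide of nlp-31 has antifungal activity in vitro, and nlp-24 has also been studied as an opioid-like peptide gene in starved worms. NHR-85 is related to the mammalian receptor Rev-Erb, and receptors of this type bind DNA at a half-site with the core letters AGGTCA.

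Of the 10 nlp genes, 8 had at least 1 summit within reach in the IDR-thresholded list. IDR stands for irreproducible discovery rate, a measure of how alike the ranks of peaks are between replicates. The 8 genes were nlp-24, nlp-27, nlp-28, nlp-29, nlp-30, nlp-31, nlp-33 and nlp-34. Over all protein-coding genes, 16.9% had such a summit. Together they had only 6 distinct peaks among 2404, because 6 of the genes lie side by side and tandem neighbours reach the same peak. All 6 summits were between protein-coding genes, none in an exon or intron of one. For each of them the nearest coding start belonged to one of the 10 genes. The nlp gene bodies are short, with a median of 428.5 bp against 2027 bp over all coding genes, so that nearly all of the searched sequence was upstream.

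In promoters, taken from 1000 bp upstream to 200 bp downstream of a transcript start, 5 of the 10 genes had an IDR-thresholded summit (nlp-24, nlp-29, nlp-31, nlp-33 and nlp-34), against 8.09% of all coding genes. In the longer pooled list it was 8 of 10, against 19.4%. It was also 8 of 10 in the replicate 1 list, against 18.0%, and in the replicate 2 list, against 25.7%. The same 8 genes were found in the pooled list and in both replicate lists, with nlp-27, nlp-28 and nlp-32 added to the 5. These lists also hold lines with little statistical support, among members and other genes alike. The deposited −log10 q-value of the nlp-32 line was 0.06 in the pooled list, 0.58 in replicate 1 and 0.23 in replicate 2. At nlp-27 it was 2.24 (pooled), 0.31 and 0.03 (replicate 1) and 2.68 (replicate 2). At nlp-28 it was 2.42, 1.87 and 2.60 in the same order. The members are few, several share a peak, and they were chosen with results of these data known, so these shares carry no test.

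The sequences beside the peaks are given first. For the 6 tandem genes they are the 150 bases that end just before each annotated gene start, shown because the peaks of the cluster lie there or are missing there. They are written 5′ to 3′ on the strand of the gene, from the RefSeq copy of the WBcel235 (ce11) assembly. Capitals mark every match, on either strand, to 5 sets of letters. These are the nuclear receptor half-site AGGTCA, the GATA factor sites AGATAA and TGATAA, the STAT site TTCNNNGAA (or with 1 more base in the gap), the E-box CACGTG and the AP-1 type site TGANTCA. No marked match overlaps another. In the order of the chromosome, the stretches are from nlp-34 (chrV:3979135-3979284, minus strand), nlp-31 (chrV:3979905-3980054, plus), nlp-30 (chrV:3981830-3981979, plus), nlp-29 (chrV:3984275-3984424, plus), nlp-28 (chrV:3987750-3987899, plus) and nlp-27 (chrV:3989228-3989377, plus).
nlp-34 upstream: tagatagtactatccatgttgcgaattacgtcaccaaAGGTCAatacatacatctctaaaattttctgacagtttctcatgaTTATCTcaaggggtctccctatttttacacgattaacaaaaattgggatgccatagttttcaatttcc
nlp-31 upstream: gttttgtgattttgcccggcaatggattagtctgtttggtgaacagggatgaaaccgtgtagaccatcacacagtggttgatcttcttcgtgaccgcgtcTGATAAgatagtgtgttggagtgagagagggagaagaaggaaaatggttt
nlp-30 upstream: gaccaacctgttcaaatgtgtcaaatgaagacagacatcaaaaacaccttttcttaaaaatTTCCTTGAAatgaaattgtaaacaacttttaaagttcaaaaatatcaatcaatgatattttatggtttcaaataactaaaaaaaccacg
nlp-29 upstream: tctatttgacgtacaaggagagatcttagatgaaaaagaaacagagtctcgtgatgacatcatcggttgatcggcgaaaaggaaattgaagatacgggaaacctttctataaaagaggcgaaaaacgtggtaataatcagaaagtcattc
nlp-28 upstream: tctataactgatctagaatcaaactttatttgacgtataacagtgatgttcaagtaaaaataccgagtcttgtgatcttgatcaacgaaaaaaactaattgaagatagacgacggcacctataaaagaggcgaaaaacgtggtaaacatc
nlp-27 upstream: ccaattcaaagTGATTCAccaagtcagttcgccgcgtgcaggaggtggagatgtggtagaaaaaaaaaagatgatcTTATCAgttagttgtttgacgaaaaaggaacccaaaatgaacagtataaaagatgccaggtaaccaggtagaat

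For the other 4 IDR-thresholded summits at these genes, which lie outside those stretches, the summit with 50 bases on each side is shown on the plus strand of ce11. They are from chrV:11616088-11616188 and chrV:11614993-11615093 before nlp-24, chrV:11147159-11147259 before nlp-33 and chrV:3985228-3985328 between nlp-29 and nlp-28.
summit 238 bp before nlp-24: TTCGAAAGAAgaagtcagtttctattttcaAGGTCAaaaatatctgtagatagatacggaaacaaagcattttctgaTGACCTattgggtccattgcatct
summit 1333 bp before nlp-24: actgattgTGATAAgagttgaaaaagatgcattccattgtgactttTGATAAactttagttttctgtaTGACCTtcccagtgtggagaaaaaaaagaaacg
summit 137 bp before nlp-33: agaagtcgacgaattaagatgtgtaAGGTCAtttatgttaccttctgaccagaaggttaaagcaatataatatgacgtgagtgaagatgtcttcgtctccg
summit between nlp-29 and nlp-28: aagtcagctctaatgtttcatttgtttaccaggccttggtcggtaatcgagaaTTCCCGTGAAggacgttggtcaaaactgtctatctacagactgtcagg

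The tandem cluster covers 10946 bp of chromosome V (3978825 to 3989770) and holds no coding gene besides nlp-34, nlp-31, nlp-30, nlp-29, nlp-28 and nlp-27. The first of these runs on the minus strand and the other 5 on the plus strand. Within it were 3 IDR-thresholded summits, and the flanks of 20 kb on each side held 1 more. In the pooled list there were 6 inside and 5 in the flanks. The flanking genes are mainly cytochrome P450 genes of the cyp-34A family and chemoreceptor genes of the str, srx and srh families, and none of the 11 coding genes there had an IDR-thresholded summit within its own reach. The values of a peak below are the signal given by the authors' peak caller, in its own units, and its rank in a list ordered by that signal.

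The strongest peak of the cluster was in the 920 bp between the divergent genes nlp-34 and nlp-31 (chromosome V, 3979918 to 3980032). Its summit lay 53 bp upstream of the nlp-31 start and 868 bp upstream of the nlp-34 start. Its signal was 300.4 in the pooled data, rank 414 of 2404 in the IDR-thresholded list. It was 148 in replicate 1 (rank 426 of 8092) and 154 in replicate 2 (rank 389 of 13289). The summits of the replicates were 16 bp apart, and its rank was near the top of both lists. This peak was also the one within reach of nlp-30, at 1978 bp upstream, and of nlp-29, at 4423 bp.

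A weaker peak between the same 2 genes (3979040 to 3979469) had its summit 121 bp upstream of the nlp-34 start. Its signal was 68.1 in the pooled list, 31.3 in replicate 1 and 36.2 in replicate 2. It did not reach the IDR-thresholded list, whose lowest signal was 97.2. The interval between the divergent starts therefore held 2 separate peaks, one close to each start, and the one at nlp-31 was the higher in every list that gave both.

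nlp-29, the gene most used as a reporter of infection and wounding, had a peak across its start (3984174 to 3984603) with the summit 36 bp upstream. The signal was 131 in the pooled data (rank 1614 in the IDR-thresholded list), 71.9 in replicate 1 and 61.7 in replicate 2. Its summits in the replicates were 45 bp apart, the widest gap among the 6 IDR-thresholded nlp peaks. A second peak lay downstream of nlp-29 (3985063 to 3985492), 853 bp past its start and 2622 bp upstream of nlp-28. It was the stronger of the pair, with a signal of 169.8 in the pooled data (rank 1114), 98.5 in replicate 1 and 70.8 in replicate 2. No protein-coding gene lay under this second summit.

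nlp-28 and nlp-27 each had a peak just upstream of the start that was not in the IDR-thresholded list. The nlp-28 summit was 112 bp upstream, with a signal of 94.6 in the pooled list (rank 2494 of 8389), 51.5 in replicate 1 and 42.0 in replicate 2. The nlp-27 summit was 110 bp upstream, with 88.8 in the pooled list (rank 2691). Both pooled signals were just under the lowest IDR-thresholded signal of 97.2. For nlp-27 the replicates differed in shape. Replicate 1 had 2 weak lines, 203 bp upstream and 14 bp downstream of the start, with signals of 31.6 and 25.5, where replicate 2 had 1 line 111 bp upstream with 54.6. These 2 genes were counted among the 8 through the peaks nearer to nlp-29. The summit at the nlp-29 start was 4989 bp from nlp-27, just inside the 5 kb limit, and 5027 bp away in replicate 2, just outside it. The other near cases lay outside, at 5170 bp from nlp-29 (pooled signal 68.1), 5255 bp from nlp-34 (131) and 5731 bp from nlp-24 (156).

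nlp-30 was the exception in the cluster, as the one gene there without a promoter summit in any list. No summit lay in its body either. The summit nearest to its Ensembl start was the nlp-31 peak, at 1978 bp in the pooled data, 1989 bp in replicate 1 and 1973 bp in replicate 2. The start of nlp-30 differs between annotations, at 3981980 in Ensembl and at 3982356 in RefSeq, and neither start had a peak beside it. The other 9 genes have the same start and end in both.

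**Figure D1:**
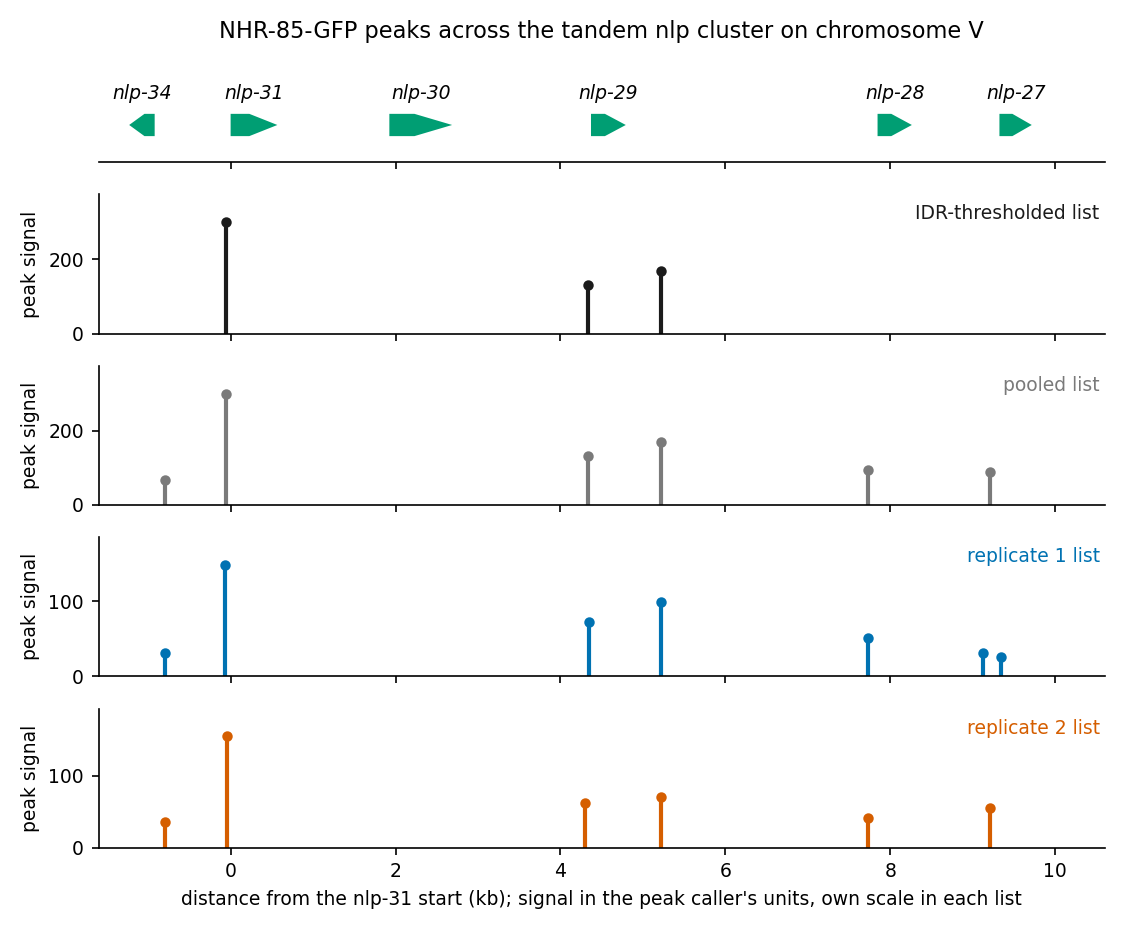
Peak summits across the tandem nlp cluster, plotted as distance from the nlp-31 start (x axis, kb) against peak signal (y axis, the peak caller's units, a separate scale in each list), with gene bodies drawn to scale as arrows on top. The highest stem in every list stands at nlp-31 (300.4 in the pooled data). In the pooled list a stem stands at the start of every cluster gene except nlp-30. The second stem beside nlp-29 has no protein-coding gene under it.

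Outside the cluster, nlp-24 (chromosome V, 11616376 to 11616828, plus strand) had the strongest peak of all 10 genes. Its summit lay 238 bp upstream of the start (11616079 to 11616255), with a signal of 327 in the pooled data, rank 339 of 2404. It was 152 in replicate 1 (rank 398) and 177 in replicate 2 (rank 289). A second IDR-thresholded peak lay 1333 bp upstream (11614828 to 11615257), with a signal of 238 (rank 644) in the pooled data. It was 138 in replicate 1 (rank 489) and 99.5 in replicate 2 (rank 876). Another and weaker peak, 3695 bp upstream, had a signal of 54.1 in the pooled list and was nearer to the start of tag-290, at 626 bp. nlp-24 was thus the one gene with 2 IDR-thresholded summits that no other nlp gene shared.

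nlp-33 (chromosome V, 11147346 to 11147737, plus strand) had 1 IDR-thresholded peak (11146994 to 11147423), with the summit 137 bp upstream. The signal was 157 in the pooled data (rank 1251), 85.5 in replicate 1 and 76.0 in replicate 2. Replicate 2 had a further weak line with its summit 30 bp past the start, in coding sequence (22.7). On the other side of the main summit starts the divergent coding gene T19C4.24. The interval of the main peak covered that start as well as the nlp-33 start, which was the nearer one to the summit. A weaker pooled line 1147 bp upstream of nlp-33 had a signal of 45.7 and was nearer to the start of T19C4.24, at 809 bp. It was matched in replicate 2 (21.5, 1036 bp upstream) but by no line of replicate 1.

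nlp-32 and nlp-25 had no IDR-thresholded summit within reach. For nlp-32 (chromosome III, 486114 to 486547, minus strand), the only gene of the group not on chromosome V, a weak summit lay 153 bp upstream in the pooled list, with a signal of 42.4 (rank 7636 of 8389). The signal there was 35.7 in replicate 1 and 19.8 in replicate 2, with summits 161 bp apart. A further line of replicate 1 alone, 4434 bp upstream of nlp-32 (26.7), was nearer to the start of unc-45, at 566 bp. For nlp-25 (chromosome V, 19606180 to 19608419, plus strand) no list held a summit in the body or the 5 kb upstream. The nearest pooled summit was 456 bp past its end, with a signal of 82.8. The nearest IDR-thresholded summits were 60353 bp from the start of nlp-25 and 53441 bp from that of nlp-32.

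**Figure D2:**
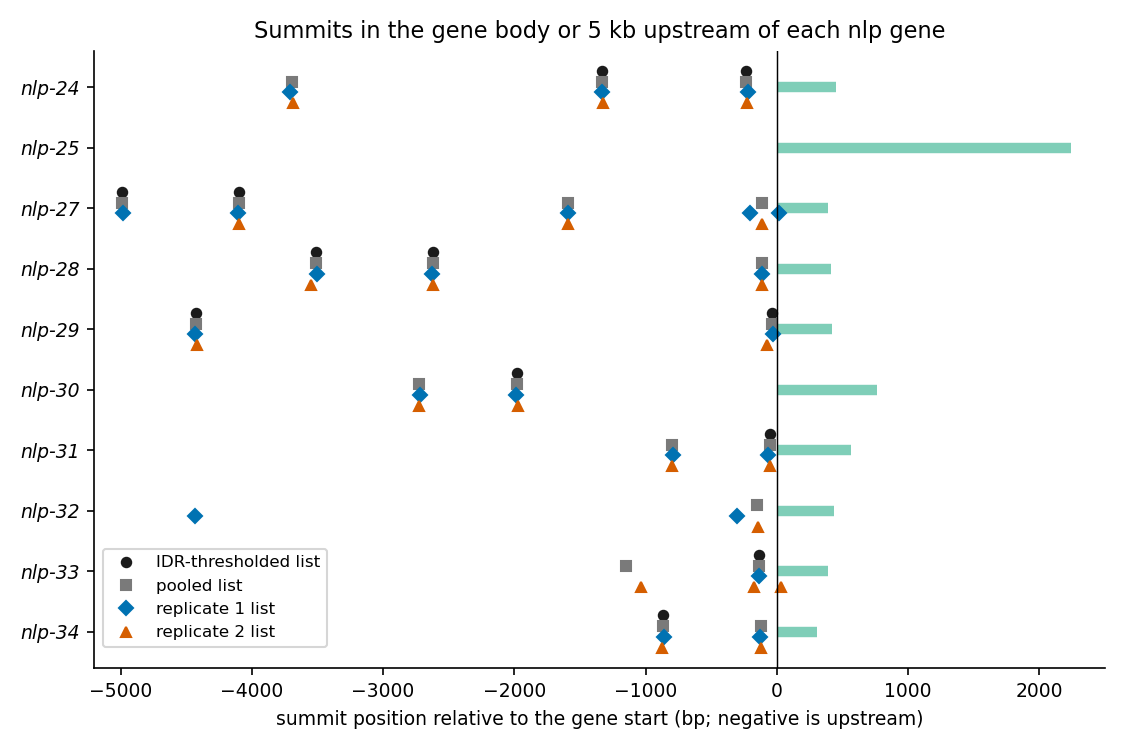
Position of every summit relative to the gene start (x axis, bp, negative is upstream) for each nlp gene (rows), with 1 marker per summit and list and the gene body as a green bar. Summits of all 4 lists line up near the start of nlp-24, nlp-29, nlp-31 and nlp-33, weaker lists alone show one at nlp-27, nlp-28, nlp-32 and nlp-34, and nlp-25 has none.

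Across all lists the nlp genes had 13 distinct loci, where lines with overlapping intervals count as 1. Of these, 12 were in the pooled list and 11 in both replicate lists. With summits within reach in the pooled list, 9 of 10 genes were reached, against 40.9% of all coding genes. The replicate 1 list also reached 9, against 41.1%, and the replicate 2 list 9, against 54.4%. The one gene added in each of these lists was nlp-32, through the lines of low −log10 q-value given above. The share of all coding genes more than doubled in each list.

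All 6 IDR-thresholded nlp peaks were present in both replicates, as were 2403 of all 2404 peaks of that list, which is itself made by comparing the replicates. Whether the signal is normalized to depth is not known, so the ratio of replicate 1 to replicate 2 signal is read only beside that of other peaks. It ranged from 0.860 to 1.39 among the 6 nlp peaks, with a median of 1.14. Over the 2403 IDR-thresholded peaks found in both replicates, the median ratio was 1.01 and the span from the 5th to the 95th percentile was 0.640 to 1.49. The 6 nlp peaks therefore sat inside the spread of the other IDR-thresholded peaks. Their summits differed by a median of 13 bp between replicates, against 18 bp over all such peaks. Among the 5 weaker loci seen in both replicates, the ratio ran from 0.579 at nlp-27 to 1.81 at nlp-32. The spread above comes from the IDR-thresholded list, whose lowest signal was 97.2. The pooled signals of these weaker loci were all below that, so they are not set against that spread. Each of the 6 IDR-thresholded nlp peaks had the same signal and rank in the IDR-thresholded list as in the pooled list, which is no measure of agreement between replicates.

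**Figure D3:**
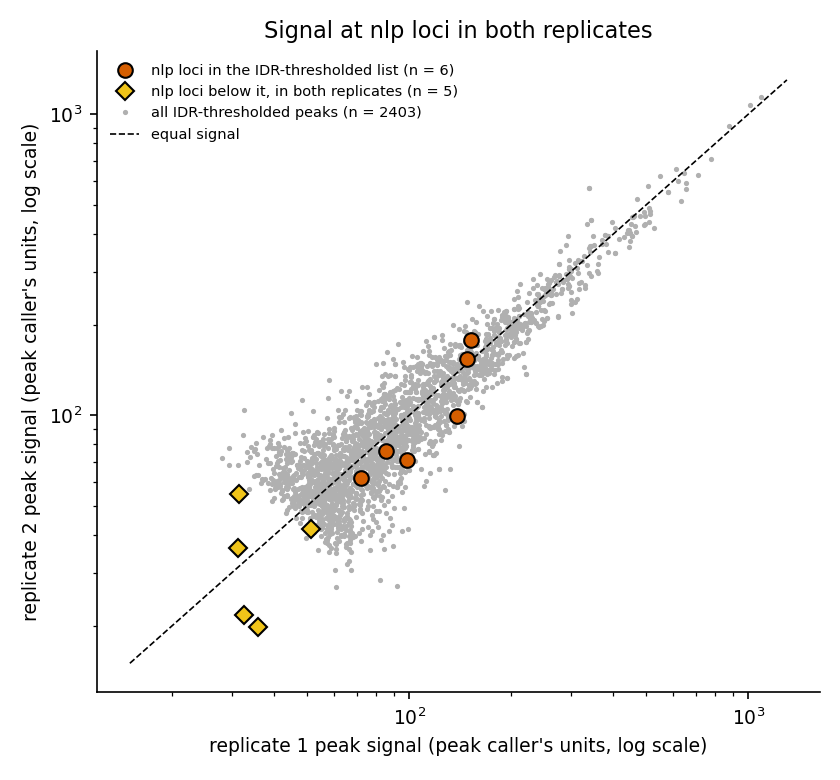
Peak signal in replicate 1 (x axis) against replicate 2 (y axis), both on log scales in the peak caller's units, for the 6 IDR-thresholded nlp loci (orange circles), the 5 weaker nlp loci found in both replicates (yellow diamonds) and the 2403 IDR-thresholded peaks found in both (grey). The orange circles lie within the grey cloud close to the line of equal signal, and the diamonds of nlp-32 (ratio 1.81) and nlp-27 (0.579) lie furthest from it.

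Near-identical copies can blur the placing of reads, so the share of 31-base words that occur once in the assembly was measured. Over the 13 loci it ran from 97.0% to 100%, so the words under the nlp peaks were almost all unique. Coding sequences of the 6 tandem genes were 57.6% to 84.4% identical in pairs, with nlp-30 and nlp-31 the most alike. The 150 bases before their starts were 39.6% to 58.3% identical, and the lowest value was again that of nlp-30 and nlp-31. The median upstream identity was 50% for the 15 pairs within the cluster and 49.2% for the 30 pairs that include a gene outside it. For coding sequence the medians were 73.2% and 56.2%, so the tandem genes were more alike in coding sequence than the other pairs, with little difference upstream. The identity of unrelated stretches was not measured, so the floor of these upstream values is not known. The nlp-30 stretch was taken before its Ensembl start, which differs from that of RefSeq. The wider window of nlp-27 and nlp-28, body and 5 kb upstream, had fewer unique words (77.3% and 77.6%), between the peaks rather than under them.

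The half-site AGGTCA lay within 50 bp of 3 of the 6 IDR-thresholded nlp summits, against 6.53% of all 2404 summits. These were both nlp-24 summits and the nlp-33 summit. At the stronger nlp-24 summit there were 2 matches, beginning 20 bp before and 27 bp after it in the sequence above. At the other nlp-24 summit a match began 18 bp after, and at nlp-33 a match began 25 bp before. None of the 3 IDR-thresholded summits in the tandem cluster had these letters in the window. In the 150 bases before gene starts, 1 of 10 members had the half-site (nlp-34), against 4.53% of all coding genes. It began 113 bp upstream of nlp-34, beside the weaker summit at 121 bp. With 6 windows these shares are loose, and a match is a match of letters and not a shown binding site.

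GATA sites, the letters bound by epidermal factors such as ELT-1 and ELT-3, were found at 2 of the 6 summits, against 15.3% of all. The nlp-31 site began 50 bp before the gene start, beside the summit at 53 bp. The weaker nlp-24 summit had 2 GATA sites. In the upstream stretches 5 of 10 members had one (nlp-24, nlp-27, nlp-31, nlp-32 and nlp-34), against 28.1% of all coding genes. The STAT letters were at 2 of the 6 summits, against 7.28%, namely the stronger nlp-24 summit and the one between nlp-29 and nlp-28. This count was 1 with the summits of either replicate alone. In the upstream stretches they were at nlp-30 and nlp-32, against 16.1% of coding genes. The E-box was at 0 of 6 summits, against 8.44%, and the AP-1 type letters at 0 of 6, against 3.16%. In the upstream stretches the E-box was at 0 of 10, against 3.43%, and the AP-1 type letters at nlp-27 alone, against 5.19%. The summit at the nlp-29 start had no match to any of the 5 sets.

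One further likeness was looked for after the sequences had been seen. nlp-28 and nlp-29 share an unbroken run of 27 bases, ctataaaagaggcgaaaaacgtggtaa, that begins 32 bp before the nlp-28 start and 44 bp before the nlp-29 start on chromosome V. It holds the letters TATAA of a TATA box. On the strand of the gene, TATAA was found in the 150 bases before 6 of the 10 genes (nlp-24, nlp-27, nlp-28, nlp-29, nlp-32 and nlp-33), against 28.0% of all coding genes. Among 5 of the 6, the copy nearest to the start began between 26 bp and 43 bp before it. In nlp-24 it began 122 bp before the start.

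The other genes of the epidermal defence response were read from lists made with earlier results of these data known. The signalling list runs from the receptor gene dcar-1 to sta-2 and also holds snf-12 and elt-3. Of its 14 genes, 11 had an IDR-thresholded summit in the body or 5 kb upstream (13 distinct peaks), against 16.9% of all coding genes. These genes are long, with a median of 5947 bp, which widens the sequence searched. In the pooled list it was 13 of 14 (92.9%), where the nlp genes had 9 of 10 (90.0%) and all coding genes 40.9%. In promoters the IDR-thresholded count was 6 of 14, against 8.09%. Promoters were taken at every annotated transcript start, so genes with more starts had more promoter sequence searched. For tpa-1, gpa-12 and elt-3 the promoter summit was intronic, at an internal transcript start 11038 bp, 3254 bp and 4693 bp into the gene. The strongest peak of the signalling list was this one of tpa-1, a protein kinase C gene. Its signal was 273 in the pooled data, 126 in replicate 1 and 148 in replicate 2. The sta-2 peak, 183 bp upstream of the start, had 206, with 99.2 in replicate 1 and 99.7 in replicate 2. A peak 2317 bp upstream of the p38 kinase gene pmk-1 had 194, with 91.5 in replicate 1 and 104 in replicate 2. Another intronic peak of the G protein gene gpa-12, outside its promoters, had 178. The Tribbles-like gene nipi-3 had a peak 304 bp upstream with 168, and the kinase gene nsy-1 one 3286 bp upstream with 154. The 3 genes without one were egl-8, plc-3 and rack-1, named here after their values were seen. Unlike for the nlp peaks, the nearest coding start was not looked up for the summits of these genes. Some may lie nearer to the start of another gene.

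The other lists had lower shares in the IDR-thresholded list. Of 11 caenacin genes (cnc), which encode a related family of antimicrobial peptides, 3 (27.3%) had an IDR-thresholded summit within reach, namely cnc-8, cnc-11 and cnc-10, against 16.9% of all coding genes. In the promoter it was 1 of 11, against 8.09%. In the pooled list 8 of 11 caenacin genes (72.7%) were reached, against 40.9%. Of 36 genes taken by the names fip and fipr, 8 (22.2%) had an IDR-thresholded summit within reach, near the share of all coding genes, and 5 in the promoter. In the pooled list 9 of 36 were reached, below the 40.9% of all coding genes. None of the 6 furrow collagen genes, whose loss switches nlp-29 on, and none of 4 genes of the TGF-beta branch that acts on cnc-2 had one. In the pooled list it was 2 of 6 and 2 of 4, on either side of the 40.9% of all coding genes. Among 61 other nlp genes, which mostly encode neuropeptides, 2 (3.28%) had an IDR-thresholded summit within reach, nlp-76 and nlp-80, against 16.9%, and 0 in the promoter. In the pooled list it was 14 of 61 (23.0%), against 40.9%. The epidermal genes, at 8 of 10, thus stood above the other genes of the same name, which have longer bodies (median 1006 bp). Those 8 genes rest on 6 distinct peaks, several of them shared by tandem neighbours, and so are not separate cases. By nearest coding start alone the count was 4 of 10, against 8.44% of all coding genes. That count was not made for the other nlp genes.

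**Figure D4:**
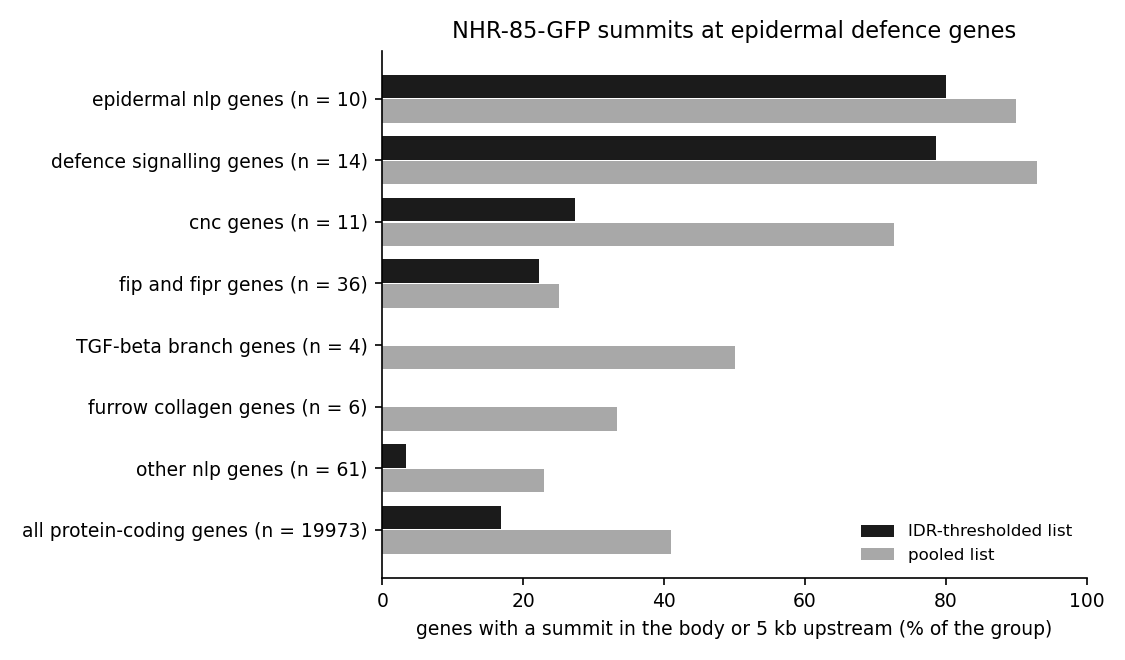
Share of genes with a summit in the body or 5 kb upstream (x axis, % of the group), for the 10 epidermal nlp genes, 6 other lists and all 19973 protein-coding genes (rows), in the IDR-thresholded list (black) and the pooled list (grey). In the IDR-thresholded list the epidermal nlp genes stand at 80.0% and the signalling genes at 78.6%, above the other lists and above the 16.9% of all genes. The 80.0% rests on 6 distinct peaks, several shared by neighbouring genes.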

How the data were processed

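NHR-85-GFP ChIP-seq peaks of 2 replicates of L1 larvae were used. The deposited files are narrowPeak lists on ce11, called against a control for each replicate and for both pooled, and an IDR-thresholded list made from these 3, per the deposited file descriptions. The sources used here name no aligner, peak caller or threshold. The signal of a peak is as the authors deposited it and served to describe and rank peaks within a list. Ratios between the replicate lists are also given, though no source used here says whether the signal is normalized to depth. The deposited −log10 q-value is at its ceiling in 67.8% of IDR-thresholded peaks and was not used to rank or select peaks. In the pooled list 19.4% of peaks are at the ceiling, and the value is given for weak lines of nlp-27, nlp-28 and nlp-32. The 5 lists on ce10 were not used, since no ce10 genome was at hand.

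Lines with the same interval were reduced to the stronger one (2410 to 2404 in the IDR-thresholded list), and a summit past its interval was set to the end. Gene models were those of Ensembl 115 on WBcel235, the same assembly as ce11. Overlap meant at least 1 bp. Sequences were aligned in pairs with Biopython 1.88. The assignment of summits to genes and the motif search were tested on simulated data. Members, gene lists and letters searched were chosen with earlier results of these data known. All 10 members are named. Of each other list, the genes with an IDR-thresholded summit within reach are named, at most 6 by pooled signal. Outside this rule, dcar-1, snf-12 and elt-3 are named to describe their list, and cnc-2 for what its pathway does. egl-8, plc-3 and rack-1 are named as the signalling genes without such a summit.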

Additional observations from a re-analysis of the deposited data

How the results depend on the processing

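Of 57 alternative values, 43 stayed within 1.5 times the reported one. The 6 distinct nlp peaks became 12 with every line of the pooled list and 12 with replicate 1 peaks that overlap replicate 2 peaks. They became 13 with either replicate left out, which means the whole list of the other replicate, of 8092 or 13289 peaks. These lists are longer, and the share of all coding genes with a summit within reach rose too. From 16.9% it rose to 40.9% (pooled), 31.6% (overlapping), 41.1% (replicate 1 alone) and 54.4% (replicate 2 alone). The 8 genes reached became 5 with 1 kb upstream and 4 when only the nearest coding start counted, since nlp-27, nlp-28 and nlp-30 are reached only through distant peaks and nlp-34 through the nlp-31 peak. The background then was 9.34% and 8.44%. Leaving out either replicate gave 9, against 41.1% of all coding genes with replicate 1 alone and 54.4% with replicate 2 alone. The 5 genes with a promoter summit became 3 in the 50% of the IDR-thresholded list with the higher signal, against 4.34% of all genes. They became 8 in the pooled list (19.4% of all genes) and in the shared peaks (15.1%). They were also 8 with replicate 1 alone (18.0%) and with replicate 2 alone (25.7%). With a reciprocal overlap of 50%, 5 of the 6 peaks were found in both replicates, against 92.2% of all IDR-thresholded peaks. The STAT match count of 2 was 1 in the 51 bp window and with the summits of either replicate alone.

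No paired analysis was possible because there was 1 group. No list gives read counts, so the depth behind each peak is unknown and a missing weak peak does not show absence. The 3 longer lists differ in length, from 8092 to 13289 peaks. In 86.6% of IDR-thresholded peaks the summit is the centre of the interval, so short distances are approximate.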

Other observations

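A block of cnc, fip and fipr genes on the X chromosome had peaks in series. The caenacin gene cnc-8 had IDR-thresholded summits 124 bp, 2220 bp and 4483 bp upstream of its start, with pooled signals of 121, 160 and 171. The middle one lay 154 bp upstream of fipr-21 and the furthest 629 bp upstream of fip-5, so that each of the 3 neighbouring genes had a promoter summit of its own. At cnc-8 the signal was 68.9 in replicate 1 and 50.7 in replicate 2. It was 68.8 in replicate 1 and 91.4 in replicate 2 at fipr-21, and 66.5 in replicate 1 and 97.9 in replicate 2 at fip-5.

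The strongest peak among the fip and fipr genes lay 105 bp upstream of fipr-22, with 245 in the pooled data, 127 in replicate 1 and 121 in replicate 2. A weaker one lay 122 bp upstream of fipr-23, with 112. Both reach fipr-24 as well. A peak 1859 bp upstream of fip-2 had 171.5 in the pooled data. Near-identical copies were not examined for these genes, and the placing of their reads is uncertain.

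For nlp-30, the 150 bases before the Ensembl start held no TATAA, whereas those before the RefSeq start held 2 copies, the nearer beginning 43 bp before it, the same distance as in nlp-29. Neither stretch had a summit in any list.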
